A study of Salvia miltiorrhiza with 5 samples.

Results

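Hairy roots of *Salvia miltiorrhiza* (Danshen) treated with methyl jasmonate (MeJA) for 1 h were compared with untreated hairy roots, over the pathway, cytochrome P450 and transcription factor unigenes that the study's tables name. Those tables list 565 of the 55588 assembled unigenes, in 6 lists: 66 for tanshinone biosynthesis, 37 for phenolic acid biosynthesis, 20 candidate downstream enzymes, 45 P450s listed with tanshinone genes, 26 P450s listed with phenolic acid genes and, as the bulk of the lists, transcription factors (TFs). Of the 565, 479 had at least 30 counted read pairs in MeJA-1h or in control and are described here, as are 42760 of all unigenes. The remaining 86 listed unigenes were under 30 counts in both libraries and enter no count below. A unigene is a transcript sequence assembled from the reads without a genome, and several unigenes can carry the same gene name. There were 4 unigenes in more than 1 list, 2 of them listed both as CYP76AH genes and as MYB-related TFs and 2 both as CYP76AH genes and as CYP76C2.

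Hairy roots were induced on sterile leaf sections by a disarmed *Agrobacterium tumefaciens* strain with an Ri plasmid, whose genes make the tissue form roots that grow in culture without hormones. MeJA-1h was 40-day-old cultured hairy root sampled 1 h after MeJA, dissolved in ethanol, was added to the medium, and control was hairy root of the same age that received no elicitor, sampled at 0 h. The other libraries of the series are MeJA-6h and 2 libraries treated with yeast extract (YE). Each condition was 1 library of mixed RNA from replicate cultures, so no difference given here has a replicate check, and no test between the 2 conditions was possible. The intervals of 95% beside ratios are exact binomial (Clopper-Pearson) intervals of the 2 counts and cover counting error only. Effects of MeJA, of 1 h in culture, of handling and of the solvent cannot be told apart with these libraries. The tissue label was not checked against root markers, since the tables name none.

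The counted read pairs summed to 16070622 in MeJA-1h and 13395770 in control. For a unigene of 1 kb, 3 counts, the floor used below, were 0.187 RPKM in MeJA-1h and 0.224 RPKM in control. RPKM is the count divided by the unigene's length and the library's total, so ratios of RPKM are scaled by library totals. On that scale the median of all 42760 unigenes was -0.28 on the log2 scale, and the TMM scaling of edgeR, which assumes that most unigenes are level, added 0.27 to every log2 ratio and put that median at -0.00. A unigene was called higher or lower where its ratio was past 2-fold. Over all 42760 unigenes, 7.15% were called higher and 9.46% lower with library totals, and 9.49% higher and 5.17% lower with TMM. Every count of calls given below is to be read beside these shares. Of the 479 listed unigenes, 282 (58.9%) were called higher and 7 lower with library totals, and 315 higher and 3 lower with TMM. The 282 were all among the 315. The study chose its P450s and TFs partly by their rise after an elicitor, this library among them, so the direction of those lists is what chose them and is not independent evidence. Just inside the threshold lay a C2H2 TF at 2.01-fold and the MK unigene SmiContig5870 at 2.01-fold, and just outside it lay 4CL9 SmiContig10447 at 1.996-fold and a C2H2 TF at 1.99-fold.

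Jasmonate acts in plants by bringing JAZ repressors, proteins of the Tify family, to an SCF ubiquitin ligase for destruction, which frees MYC2, a bHLH transcription factor, and its relatives. In *Arabidopsis* the JAZ genes are themselves early targets of MYC2, together with genes of jasmonate synthesis. In Danshen, MeJA is used to raise tanshinones, which are diterpenoid quinones of the root, and phenolic acids such as rosmarinic acid and salvianolic acid B. Tanshinones are built from isoprene units of the cytosolic mevalonate (MVA) and the plastid methylerythritol phosphate (MEP) pathways, and the phenolic acids from phenylalanine and tyrosine.

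All 4 Tify unigenes of the TF list were called higher. The most abundant, c14867_Smj-0h_g1_i1, had 1475 RPKM in MeJA-1h and 39.3 RPKM in control, or 19672 counts in MeJA-1h and 437 in control, a ratio of 37.5 (95% interval 34.1 to 41.3). SmiContig7563 had 143 RPKM in MeJA-1h and 1.02 RPKM in control, a ratio of 140.2 (95% interval 91.8 to 245). The remaining pair was scarce in control as well. SmiContig11926 had 264 RPKM in MeJA-1h and 2.23 RPKM in control, a ratio of 118 (95% interval 83 to 187). SmiContig12974 had 151 RPKM in MeJA-1h and 2.22 RPKM in control, a ratio of 67.9 (95% interval 50 to 97.3). No other family had a median as high: the Tify median was 6.48 on the log2 scale, against 1.36 for the 301 TF unigenes with at least 30 counts. With MeJA for 6 h the levels of the 4 lay between 51.6 and 504 RPKM, and with YE for 1 h between 5.98 and 68.6 RPKM.

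MYC2 is the bHLH factor that JAZ proteins hold in check. The study's table of raised unigenes gives MYC2 as the best *Arabidopsis* match of 2 bHLH unigenes, and being in that table is itself a result of the rise. c21649_Smj-1h_g2_i1 had 69 RPKM in MeJA-1h and 9.45 RPKM in control, a ratio of 7.31 (95% interval 6.46 to 8.31). SmiContig10476 had 53.7 RPKM in MeJA-1h and 5.96 RPKM in control, a ratio of 9.01 (95% interval 6.94 to 12.2). Both were among 41 of 49 bHLH unigenes that were called higher, with 1 called lower and a family median of 1.95 on the log2 scale. The largest bHLH ratio was that of c21928_Smj-1h_g1_i2, with 505 counts and 35.8 RPKM in MeJA-1h and 0 counts in control. With control set to the floor of 3 counts its ratio was 140.3. The 95% interval from the counts as they stand ran from 114 upward, without an upper limit. The bHLH unigene called lower, SmiContig28202, was scarce in both libraries, with 19 against 38 counts and 1.57 against 3.82 RPKM, a ratio of 0.411 (95% interval 0.227 to 0.741).

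The AP2-EREBP family holds the ethylene response factors (ERFs), several of which act on defence and secondary metabolism. Of its 26 described unigenes 20 were called higher and 1 lower, and the family median was 2.39 on the log2 scale. The largest ratio of any TF was in this family. c18443_Smj-1h_g1_i1 had 1736 counts in MeJA-1h and 1 in control, or 118 RPKM in MeJA-1h and 0.0817 RPKM in control, a ratio of 482 with control set to 3 counts and of 1448 (95% interval 259 to 57188) from the counts as they stand. Its level was 2.43 RPKM in MeJA-6h and 0.115 RPKM in YE-1h, so among these 4 libraries it was abundant in MeJA-1h alone. Of the 15 unigenes that the table of raised unigenes matches to ERF110, 8 are in the TF list. All 8 were called higher, with 8.81 to 17.4 RPKM in MeJA-1h and 1.19 to 3.67 RPKM in control, and their names show that they are isoforms of only 2 assembled groups of transcripts. The largest of the 8 ratios was 14.6 (95% interval 9.3 to 24.2) for c22842_Smj-1h_g2_i2, and the smallest was 3.58 (95% interval 2.8 to 4.65) for c21378_Smj-6h_g3_i9. There were 2 unigenes matched to ERF-1. c22694_Smj-1h_g2_i1 had 22.2 RPKM in MeJA-1h and 2.31 RPKM in control, a ratio of 9.62 (95% interval 6.38 to 16.4), and was at 26.9 RPKM in YE-1h. The more abundant SmiContig6987 had 78.5 RPKM in MeJA-1h and 35.9 RPKM in control, a ratio of only 2.19 (95% interval 1.98 to 2.41). The AP2-EREBP unigene called lower, c20376_Sye-1h_g1_i2, had 17 against 31 counts in MeJA-1h and control, a ratio of 0.466 (95% interval 0.237 to 0.852), and was within 2-fold with TMM.

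**Figure D1:**
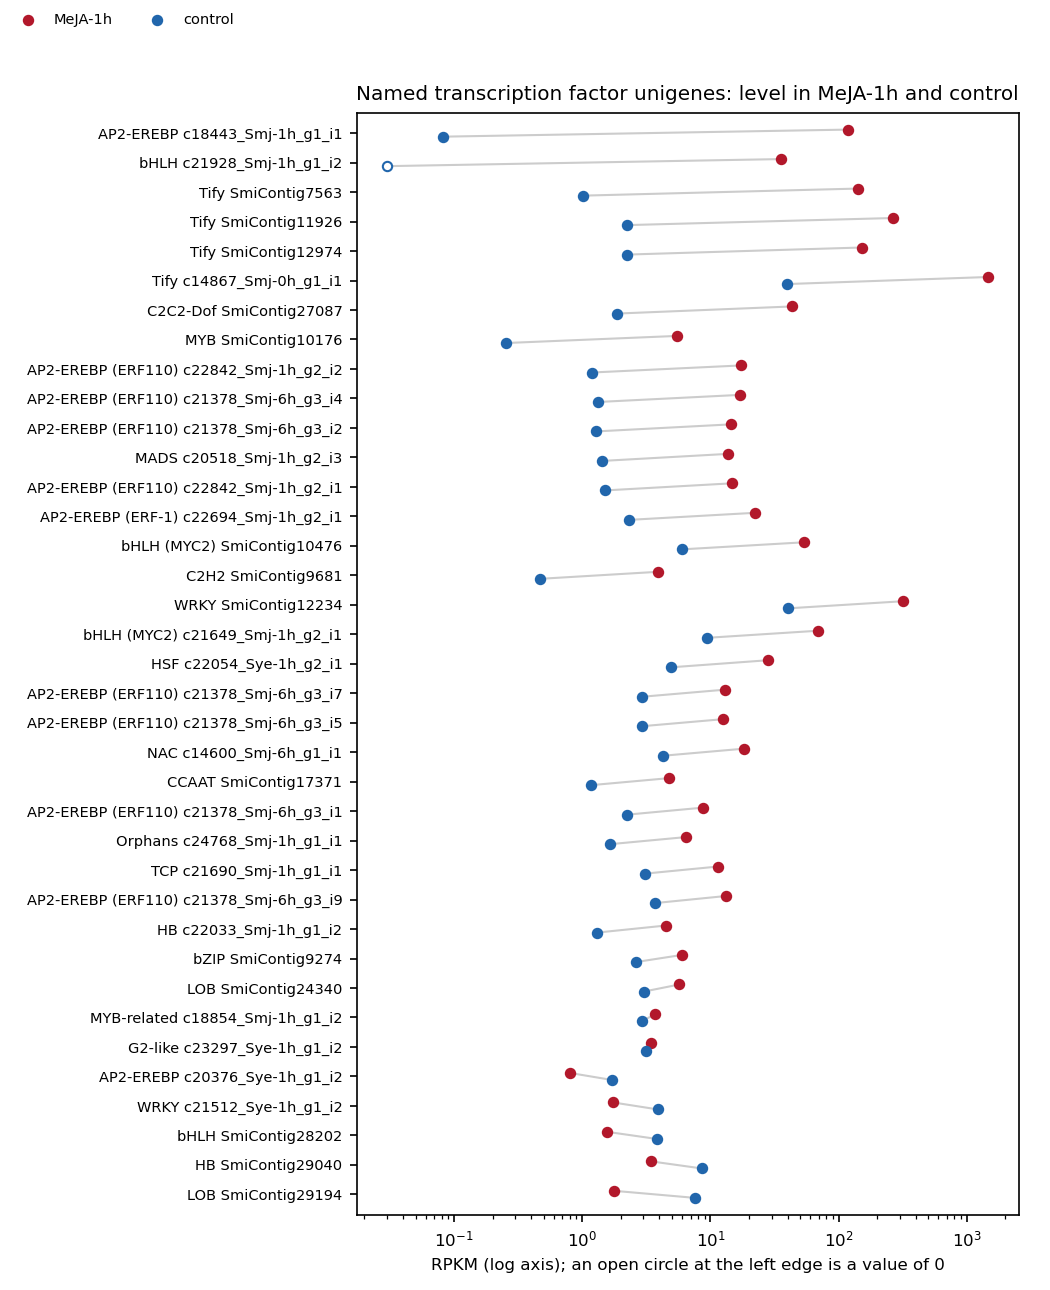
RPKM on a log axis of the TF unigenes named by rule, in MeJA-1h (red, upper point of each row) and control (blue, lower point), 1 library each and no error bars; rows run from the largest to the smallest ratio. The 4 Tify unigenes lie at 143 to 1475 RPKM in MeJA-1h and 1.02 to 39.3 RPKM in control, and the 5 rows at the bottom are the TFs called lower, all under 4 RPKM in MeJA-1h.

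MYB factors include regulators of phenylpropanoid genes in many plants. Of 31 described MYB unigenes 29 were called higher and 0 lower, with a median of 1.69 on the log2 scale. Over all unigenes 7.15% were called higher and 9.46% lower, but the TF list was chosen for a rise. The largest ratio among them rested on few reads: SmiContig10176 had 77 counts in MeJA-1h and 3 in control, a ratio of 21.4 (95% interval 7.05 to 106). WRKY factors, known for their part in defence, were split. Of 55 described WRKY unigenes 33 were called higher, 1 lower and 21 neither, with a median of 1.20 on the log2 scale. The WRKY unigene with the largest ratio was abundant: SmiContig12234 had 315 RPKM in MeJA-1h and 40.4 RPKM in control, a ratio of 7.8 (95% interval 7.29 to 8.37), and it was also at 202 RPKM in YE-1h. NAC factors, a plant family of developmental and stress regulators, were called higher in 18 of 22, at most 4.29-fold (3.2 to 5.86) for c14600_Smj-6h_g1_i1.

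Dof factors are zinc finger proteins particular to plants. In the C2C2-Dof family 5 of 9 unigenes were called higher and 4 of these 5 lay between 13.6-fold and 22.9-fold, while the other 4 were within 2-fold. SmiContig27087, the largest, had 43.1 RPKM in MeJA-1h and 1.88 RPKM in control, a ratio of 22.9 (95% interval 13.6 to 42.7). Of the described unigenes of further families, 5 of 7 MADS were called higher, with a median ratio of 3.48, as were 6 of 8 TCP, 8 of 17 C2H2 and 3 of 11 heat shock factors (6 with TMM). The share called higher over all unigenes was 7.15% (9.49% with TMM), and the TF list was chosen for a rise. The largest ratio of each family is given next. The MADS unigene c20518_Smj-1h_g2_i3 had 13.8 RPKM in MeJA-1h and 1.42 RPKM in control, a ratio of 9.67 (95% interval 6.42 to 15.2), the C2H2 zinc finger SmiContig9681 had 30 counts in MeJA-1h and 3 in control (95% interval 2.59 to 42.7), and the heat shock factor c22054_Sye-1h_g2_i1 had 28.2 RPKM in MeJA-1h and 4.95 RPKM in control, a ratio of 5.71 (95% interval 4.46 to 7.38). The largest ratios of the CCAAT, Orphans, TCP, HB and bZIP families lay between 2.28 and 4.11, on 44 to 292 counts in MeJA-1h. Of the 4 described MYB-related unigenes, 2 are also listed as CYP76AH genes. In the LOB, MYB-related and G2-like families no unigene was called higher. Their largest ratios were 1.89 (1.07 to 3.51), 1.27 (0.801 to 2.06) and 1.08 (0.757 to 1.57), of which the first would be called with TMM, at 1.19 on the log2 scale.

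Of the 301 described TF unigenes 5 were called lower, and 3 with TMM, where the shares of all unigenes were 9.46% and 5.17%. The study kept TFs that rose past 2-fold after an elicitor, this library among them. Few lower calls follow from that choice, so the comparison is not a result about TFs. The lowest ratio was that of the LOB unigene SmiContig29194, with 1.78 RPKM in MeJA-1h and 7.61 RPKM in control, a ratio of 0.233 (95% interval 0.131 to 0.401). The homeobox (HB) unigene SmiContig29040 had 3.43 RPKM in MeJA-1h and 8.53 RPKM in control, a ratio of 0.403 (95% interval 0.302 to 0.53). The WRKY unigene c21512_Sye-1h_g1_i2 had 1.73 RPKM in MeJA-1h and 3.9 RPKM in control, a ratio of 0.443 (95% interval 0.27 to 0.701). All 5 TFs called lower were higher in YE-1h than in control, between 14.0 and 25.8 RPKM, the treatment for which the list may also have chosen them. Over the whole TF list 192 of 301 unigenes were called higher with library totals and 208 with TMM, and for 150 the whole interval lay past 2-fold.

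**Figure D2:**
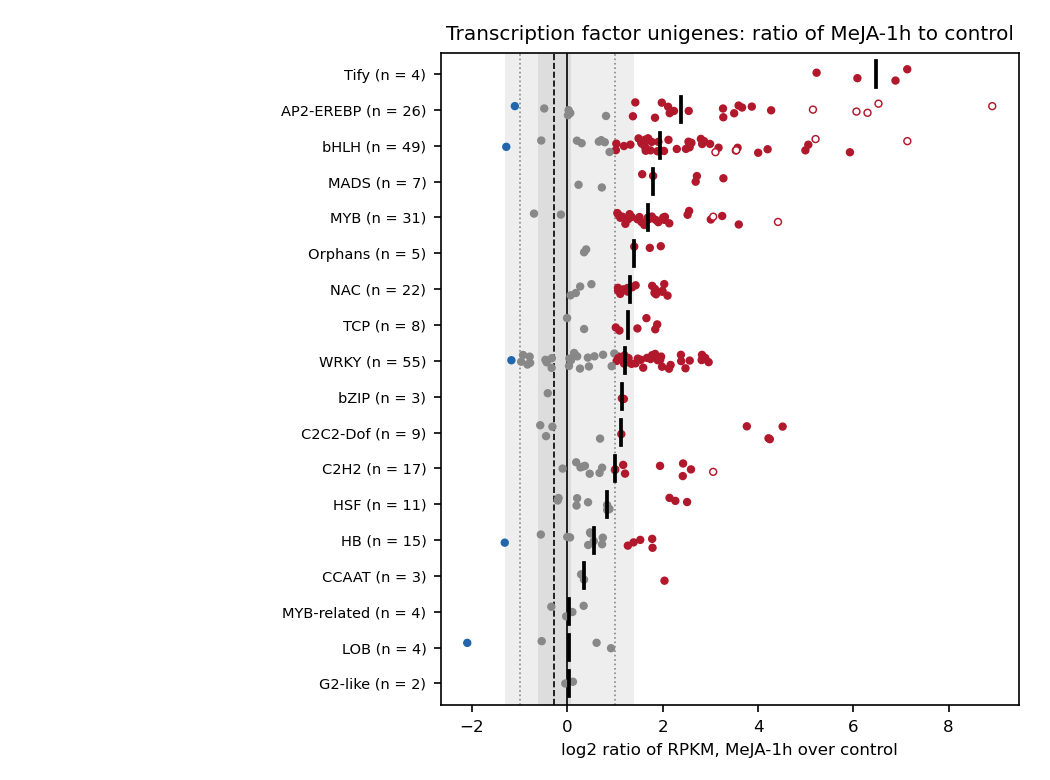
Log2 ratio of RPKM, MeJA-1h over control, of each described TF unigene, by family, with the family median as a black bar. Red points were called higher, blue lower and grey neither. Open points had 3 counts or fewer in control and are drawn with control set to 3 counts. Shaded bands are the middle 50% and 90% of all 42760 unigenes, dotted lines mark 2-fold, and the dashed line marks where 0 would lie with TMM. The Tify median of 6.48 stands apart from the AP2-EREBP median of 2.39 and the bHLH median of 1.95.

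For the enzyme genes the unigene sequences were not analysed here, and the only bases at hand are the study's qRT-PCR primers. They are shown for genes whose steps are described below, 3 genes of the isoprenoid pathways called higher, GGPPS1, which was not, and 2 phenolic acid genes called higher. All are in lower case, written 5′ to 3′, the forward primer before the reverse. Whether a primer lies in a given unigene, or which numbered gene the SmHMGR and SmTAT primers amplify, was not tested.

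SmHMGS forward: gatgagcatgacagcggttacttc
SmHMGS reverse: ggatttgctcttgtcgagtacggt
SmHMGR forward: tcgttttcaataagtcgagtaga
SmHMGR reverse: attctgaaggaagtccaaaacat
SmFPPS forward: atgctggtttagagtccccaaggt
SmFPPS reverse: ctgaacaatgcggcgatgaagag
SmGGPPS1 forward: gctgtgctcgcaggggatg
SmGGPPS1 reverse: atcgccggtgcagttcagg
SmPAL1 forward: tacctcgtcgccctatgccaag
SmPAL1 reverse: attgacgcccattgtgagagtt
SmTAT forward: caactgctggtcttccacaaac
SmTAT reverse: gcgagccaaaacggaca

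The MVA pathway builds isoprene units from acetyl-CoA in the cytosol. Of its 16 described unigenes 9 were called higher and 0 lower, all 16 had a ratio over 1, and the median was 1.03 on the log2 scale against -0.28 over all unigenes. AACT1, which joins 2 molecules of acetyl-CoA, had 804 RPKM in MeJA-1h and 360.2 RPKM in control, a ratio of 2.23 (95% interval 2.17 to 2.29). HMGS, which adds the next acetyl-CoA, had 705 RPKM in MeJA-1h and 146 RPKM in control, a ratio of 4.84 (95% interval 4.69 to 5). HMGR, the reductase that commits carbon to the pathway, was the highest of the MVA enzymes by ratio: HMGR2 SmiContig32425 had 543 RPKM in MeJA-1h and 73.6 RPKM in control, a ratio of 7.38 (95% interval 7.1 to 7.67). The other HMGR2 unigenes had ratios of 3.18 and 2.1, and HMGR3 had 2.09 (2 to 2.17), so unigenes that share the name HMGR2 differed beyond their counting intervals. The later kinases were lower by ratio. MK, mevalonate kinase, had 90.6 RPKM in MeJA-1h and 45.1 RPKM in control, a ratio of 2.01 (95% interval 1.86 to 2.17), while the 7 described unigenes of PMK, phosphomevalonate kinase, had ratios of 1.24 to 1.41 and were not called. MDC, the decarboxylase that ends the pathway, had 301 RPKM in MeJA-1h and 134 RPKM in control, a ratio of 2.24 (95% interval 2.15 to 2.34), and its scarcer unigene SmiContig6174 had 96 counts in MeJA-1h and 14 in control, a ratio of 5.52 (95% interval 3.25 to 10.8).

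The MEP pathway makes the same units in the plastid. Of its 18 described unigenes 2 (11.1%) were called higher and 0 lower, beside 7.15% and 9.46% of all unigenes. The median was -0.04 on the log2 scale with library totals and 0.23 with TMM. DXS2, a synthase at the entry of the pathway, had 173 RPKM in MeJA-1h and 112 RPKM in control, a ratio of 1.55 (95% interval 1.49 to 1.61), and DXS3 had 25.9 RPKM in MeJA-1h and 25.1 RPKM in control, a ratio of 1.03 (95% interval 0.941 to 1.13). DXR, the reductoisomerase that follows, had ratios between 0.763 and 1 in its 4 unigenes. Both calls in this pathway were HDS1 unigenes, an enzyme close to its end. HDS1 c21578_Smj-0h_g2_i1, the most abundant, lay just under the threshold with 101 RPKM in MeJA-1h and 51.2 RPKM in control, a ratio of 1.96 (95% interval 1.86 to 2.07), and SmiContig8237 just over it at 2.05 (1.94 to 2.16). The other called one, SmiContig34251, had 34 counts in MeJA-1h and 12 in control, a ratio of 2.36 (95% interval 1.19 to 5.01). The 3 CMK unigenes had ratios of 1.42 to 1.52. The 4 MCS unigenes, at 0.76 to 0.94, and the 2 IDS unigenes, at 0.936 and 0.945 (52.3 against 55.4 RPKM for IDS SmiContig18288), had ratios under 1 with library totals. With TMM all of these but MCS SmiContig31411 were over 1.

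Isoprene units are isomerised and joined into longer chains by prenyl diphosphate synthases, whose product decides which terpenes can be made. IPPI, the isomerase, had 791 RPKM in MeJA-1h and 323 RPKM in control, a ratio of 2.45 (95% interval 2.38 to 2.52). FPPS, which makes the chain for sesquiterpenes and sterols, had 399 RPKM in MeJA-1h and 177 RPKM in control, a ratio of 2.25 (95% interval 2.19 to 2.32). GGPPS1, which makes the chain for diterpenes and so for tanshinones, had 58.8 RPKM in MeJA-1h and 56.6 RPKM in control, a ratio of 1.04 (95% interval 0.961 to 1.12), an interval that includes 1. GPPS2, listed as a geranyl diphosphate synthase, had the largest ratios of any tanshinone pathway unigene. Its unigene SmiContig11755 had 614 RPKM in MeJA-1h and 24.8 RPKM in control (19330 against 652 counts), a ratio of 24.7 (95% interval 22.9 to 26.8), and c15505_Smj-1h_g1_i1 had 299 RPKM in MeJA-1h and 10.5 RPKM in control, a ratio of 28.4 (95% interval 26.1 to 31). Their count totals are close to equal, and the table of raised unigenes gives the longer one, c15505_Smj-1h_g1_i1, a LETM1-like protein (AT3G11560) as its best *Arabidopsis* match, so its name is uncertain.

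Copalyl diphosphate synthases (CPS) and the kaurene synthase-like KSL1 fold the diterpene chain into rings. Of the 15 described cyclase unigenes 11 were called higher and 0 lower, beside 7.15% and 9.46% of all unigenes. For 3 of them the whole interval lay past 2-fold. CPS1 had 1 of the calls and KSL1 had 0, and the remaining calls were of the scarcer CPS2 to CPS5. All 15 had a ratio over 1, but the levels behind these ratios differ by more than 100-fold. CPS1 is known as the root enzyme of tanshinone synthesis. Its unigene SmiContig26967 had 461 RPKM in MeJA-1h and 189.9 RPKM in control, a ratio of 2.43 (95% interval 2.36 to 2.49), while SmiContig19468 had 154 RPKM in MeJA-1h and 121 RPKM in control, a ratio of 1.28 (95% interval 1.23 to 1.32). KSL1, which acts on the product of CPS1, had 51.8 RPKM in MeJA-1h and 40.4 RPKM in control, a ratio of 1.28 (95% interval 1.19 to 1.38), and was at 218 RPKM in YE-1h. The remaining CPS genes were scarce in both libraries. CPS4 had 22.2 RPKM in MeJA-1h and 4.2 RPKM in control, a ratio of 5.28 (95% interval 3.92 to 7.42). CPS2 c21908_Smj-1h_g1_i1 had 12.5 against 5.24 RPKM, a ratio of 2.38 (95% interval 1.85 to 3.15). CPS5 SmiContig26570 had 7.56 against 3.94 RPKM, a ratio of 1.92 (95% interval 1.56 to 2.37). CPS3 c24053_Smj-1h_g1_i1 had 3.28 against 0.614 RPKM on 32 against 5 counts in MeJA-1h and control (95% interval 2.06 to 17.5).

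CYP76AH1 is the P450 that oxidises the diterpene miltiradiene to ferruginol, and CYP76AH3 is a P450 that the study lists with it for tanshinones. None of their 6 unigenes was called with either scaling. CYP76AH1 c21531_Smj-6h_g1_i1 had 141 RPKM in MeJA-1h and 115 RPKM in control, a ratio of 1.23 (95% interval 1.17 to 1.29). CYP76AH3 SmiContig31867 had 117 RPKM in MeJA-1h and 131 RPKM in control, a ratio of 0.891 (95% interval 0.847 to 0.937), and lay over 1 with TMM, at 0.11 on the log2 scale. The 3 CYP76AH3 unigenes were at 0.79 to 0.93 and the 3 CYP76AH1 unigenes at 0.98 to 1.23. Over the tanshinone list as a whole 26 of 60 unigenes were called higher, 28 with TMM, and 15 with the whole interval past 2-fold. By gene name, with the unigenes of a name summed, 13 of 26 names were called higher.

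**Figure D3:**
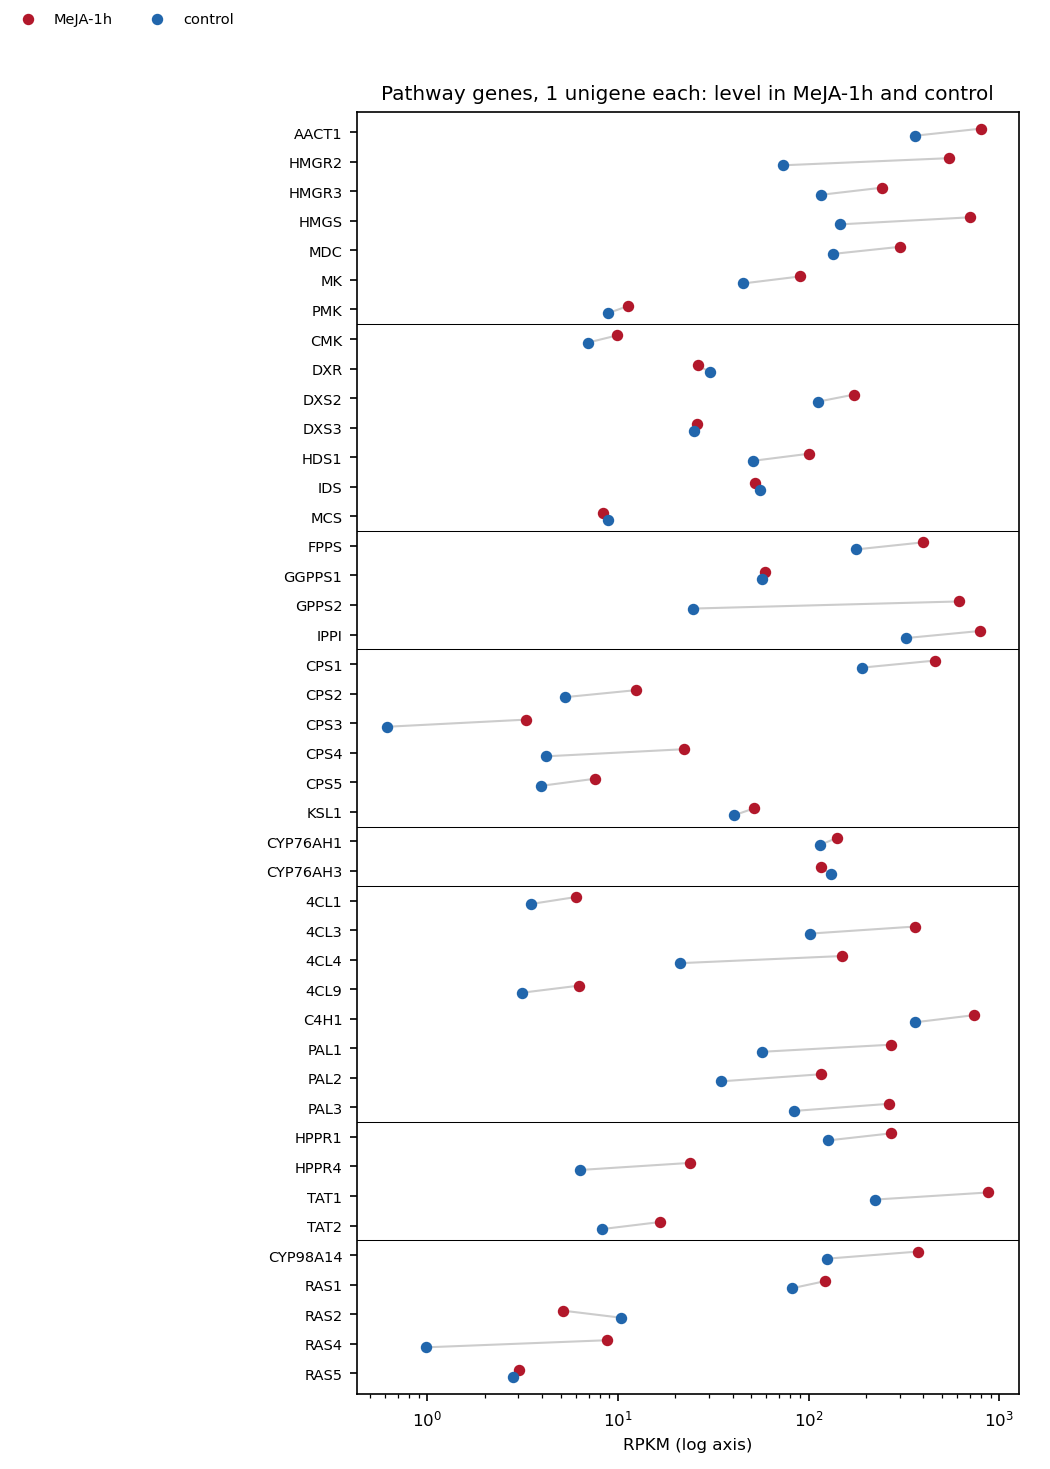
RPKM on a log axis of 1 unigene for each pathway gene, the one with the highest mean of the 2 libraries, in MeJA-1h (red, upper point) and control (blue, lower point), 1 library each and no error bars. Lines part, from the top, MVA, MEP, prenyl chain, cyclase and oxidase steps of tanshinones, then the phenylpropanoid, tyrosine and ester steps of phenolic acids. The gap is widest for GPPS2, at 614 and 24.8 RPKM, and close to nil for GGPPS1, at 58.8 and 56.6 RPKM.

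Rosmarinic acid is an ester of caffeic acid, from phenylalanine, and a lactic acid derivative from tyrosine. On the phenylalanine side all 19 described unigenes had a ratio over 1, 16 were called higher with library totals and all 19 with TMM, and the median was 1.74 on the log2 scale. PAL, which removes ammonia from phenylalanine, had 3 names. PAL1 SmiContig6887 had 269.6 RPKM in MeJA-1h and 56.8 RPKM in control, a ratio of 4.75 (95% interval 4.52 to 4.99), and the 6 PAL1 unigenes had ratios of 2.84 to 4.75. PAL2 had 116 against 34.7 RPKM in MeJA-1h and control, a ratio of 3.35 (95% interval 3.12 to 3.59). PAL3 SmiContig6888 had 264 against 84.3 RPKM, a ratio of 3.13 (95% interval 3 to 3.26), the largest of 3 PAL3 unigenes at 2.11 to 3.13. C4H1, the hydroxylase that follows, had the most abundant unigene of these steps. This unigene, SmiContig7266, had 738 RPKM in MeJA-1h and 362 RPKM in control, a ratio of 2.04 (95% interval 1.99 to 2.08). It was the smallest ratio of 3 C4H1 unigenes at 2.04 to 4.13, with a median of 3.13, and their intervals did not all overlap. The 4CL enzymes attach coenzyme A, and their names differed most in ratio. 4CL4 SmiContig5535 had 149 RPKM in MeJA-1h and 21.2 RPKM in control, a ratio of 7.01 (95% interval 6.41 to 7.68), and 4CL3 had 364 RPKM in MeJA-1h and 102 RPKM in control, a ratio of 3.58 (95% interval 3.46 to 3.69). 4CL1, at 6.03 against 3.48 RPKM, and 4CL9 SmiContig10447, at 6.26 against 3.14 RPKM, were low in both libraries and within 2-fold with library totals, but past it with TMM, at 1.07 and 1.27 on the log2 scale.

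On the tyrosine side 6 of 7 unigenes were called higher and 0 lower, beside 7.15% and 9.46% of all unigenes. Their median was 1.92 on the log2 scale. TAT1, the tyrosine aminotransferase that opens the branch, had 877 RPKM in MeJA-1h and 223 RPKM in control, a ratio of 3.93 (95% interval 3.81 to 4.05). Unigenes named TAT2 were scarce and unlike each other. SmiContig12929, the most abundant, had 16.6 RPKM in MeJA-1h and 8.23 RPKM in control, a ratio of 2.02 (95% interval 1.69 to 2.44). SmiContig8005 had 193 counts in MeJA-1h and 4 in control, a ratio of 40.3 (95% interval 15.5 to 149), and SmiContig32539 had 349 counts in MeJA-1h and 395 in control, a ratio of 0.737 (95% interval 0.636 to 0.853). This was the widest spread within any pathway gene name, 5.77 on the log2 scale. HPPR reduces the product of TAT. HPPR1 had 271 RPKM in MeJA-1h and 126 RPKM in control, a ratio of 2.15 (95% interval 2.05 to 2.25), and HPPR4 had 23.8 RPKM in MeJA-1h and 6.28 RPKM in control, a ratio of 3.79 (95% interval 3.02 to 4.79).

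Rosmarinic acid synthase (RAS) joins the branches, and CYP98A14 hydroxylates the ester. CYP98A14 had 374.9 RPKM in MeJA-1h and 125 RPKM in control, a ratio of 3.01 (95% interval 2.89 to 3.12). The names of RAS went in different directions. RAS1, the most abundant, had 122 RPKM in MeJA-1h and 81.8 RPKM in control in c17386_Smj-1h_g1_i1, and its 4 unigenes lay at 1.49 to 1.56-fold, under the threshold. RAS2 was the 1 phenolic acid unigene called lower, with 5.15 RPKM in MeJA-1h and 10.4 RPKM in control, a ratio of 0.495 (95% interval 0.393 to 0.619), it was within 2-fold with TMM, and it stood at 42.5 RPKM in MeJA-6h. RAS4 SmiContig8939 had 8.76 RPKM in MeJA-1h and 0.988 RPKM in control, a ratio of 8.87 (95% interval 5.12 to 17.4). RAS5 c23133_Smj-1h_g1_i3 had 3.04 RPKM in MeJA-1h and 2.82 RPKM in control, a ratio of 1.08 (95% interval 0.656 to 1.87), and 14.6 RPKM in MeJA-6h. Over the phenolic acid list 25 of 35 unigenes were called higher with library totals and 28 with TMM, and 23 had the whole interval past 2-fold. Their median of 1.65 on the log2 scale compares with 0.56 for the 60 tanshinone unigenes and -0.28 for all unigenes. With the unigenes of a gene summed, the medians over gene names were 1.30 for phenolic acids and 1.00 for tanshinones, a smaller gap.

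Ratios of unigenes that share a name were also compared. They come from the same 2 libraries, and whether a name covers 1 gene was not tested. Their spread therefore does not measure how far the ratio of 1 gene varies. Of 24 pathway names with 2 or more described unigenes, 14 had ratios within 0.5 of each other on the log2 scale, 6 spread over more than 1, and in 21 all unigenes lay on the same side of 0. Reads that match several unigenes may be counted on more than one of them. The unigene listed as CYP98A14 and the one listed as CYP98A3, for example, had 12042 against 3341 counts and 11951 against 3331 counts in MeJA-1h and control. Counts of unigenes are therefore not counts of independent genes, and values of close relatives are uncertain.

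The candidate list holds unigenes that the study picked by likeness to enzymes of known function, and all 20 had a ratio over 1. The paper reports its reductases and dehydrogenases as raised after an elicitor in these same libraries. Whether that rise helped to choose them is not known, so their direction is not independent evidence. Of them 15 were called higher with library totals and 18 with TMM, beside 7.15% and 9.49% of all unigenes. The median was 1.46 on the log2 scale. Of the 6 reductases 5 were called higher with library totals and 6 with TMM. SmiContig6622 had 411 RPKM in MeJA-1h and 59.1 RPKM in control, a ratio of 6.96 (95% interval 6.56 to 7.38), and SmiContig32802 had 233 RPKM in MeJA-1h and 47.8 RPKM in control, a ratio of 4.87 (95% interval 4.51 to 5.26). SmiContig32803 was at 3.07 (2.94 to 3.21), c23543_Smj-1h_g1_i2 at 3.51 (3.34 to 3.71) and SmiContig16951 at 2.38 (2.15 to 2.64), while c4200_Smj-1h_g1_i1 lay just under the threshold at 1.99 (1.8 to 2.2).

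The dehydrogenases were less abundant, and 6 of 7 were called higher, 3 of them with the whole interval past 2-fold. SmiContig32840 was the most abundant, with 106 RPKM in MeJA-1h and 33.4 RPKM in control, a ratio of 3.18 (95% interval 2.88 to 3.53). SmiContig29584 had the largest ratio, 3.59 (2.67 to 4.97), at 11.3 against 3.16 RPKM. SmiContig26874 was at 2.89 (1.85 to 4.59), SmiContig29955 at 2.63 (2.02 to 3.53), SmiContig29586 at 2.44 (1.83 to 3.39) and c16637_Smj-1h_g1_i2 at 2.22 (1.76 to 2.82). SmiContig20215, at 1.16 (0.893 to 1.53), was not called.

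Laccases are copper oxidases that can couple phenolics. Of the 4 of the 1A type, 3 were called higher. c22112_Smj-6h_g1_i1 had 333 RPKM in MeJA-1h and 55 RPKM in control, a ratio of 6.04 (95% interval 5.72 to 6.38), SmiContig23578 was at 5.02 (4.73 to 5.34) and SmiContig4159 at 3.21 (3.07 to 3.36), and SmiContig4158 was at 1.31 (1.22 to 1.4). Levels of the 4 in MeJA-6h ran from 144 to 816 RPKM, above those of MeJA-1h in each. The 3 of the laccase 2 type lay closer to the threshold. SmiContig8962 was called, at 2.11 (1.82 to 2.45), and SmiContig6627 and SmiContig18382, at 1.84 and 1.83, only with TMM.

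Plant P450s oxidise intermediates of many pathways, and the study lists those that follow tanshinone or phenolic acid genes across its libraries. Those listed with tanshinone genes were mostly level at 1 h: of 41 described, 6 were called higher, 1 lower and 34 neither, with a median of 0.28 on the log2 scale. With TMM 11 were called higher and 0 lower. The share called higher over all unigenes was 7.15% with library totals and 9.49% with TMM. The 23 members of the CYP71 family, the bulk of the list, lay between 0.75 and 1.78, and the most abundant, CYP71B2 SmiContig29966, had 319 RPKM in MeJA-1h and 315 RPKM in control, a ratio of 1.01 (95% interval 0.982 to 1.04). With library totals the calls higher came from 2 other families, while with TMM 3 of the 11 were CYP71 members. Both CYP716A1 unigenes were called higher. c20619_Smj-6h_g1_i1 had 45.3 RPKM in MeJA-1h and 6.45 RPKM in control, a ratio of 7.02 (95% interval 5.92 to 8.41), and SmiContig30710 had 64.2 RPKM in MeJA-1h and 19 RPKM in control, a ratio of 3.38 (95% interval 3.05 to 3.76). In the CYP72 family CYP72A7 SmiContig30843 was at 3.87 (3.52 to 4.27), CYP72A15 c21528_Sye-1h_g1_i1 at 2.86 (2.35 to 3.5), CYP72A10 SmiContig30503 at 2.85 (2.01 to 4.23) and CYP72A7 c21094_Sye-12h_g1_i1 at 2.13 (1.96 to 2.33). The P450 called lower, CYP706A6 SmiContig30809, had 26 counts in MeJA-1h and 53 in control, a ratio of 0.414 (95% interval 0.245 to 0.666).

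The P450s listed with phenolic acid genes had higher ratios. The study chose each list by co-expression with genes of its own pathway across these libraries. The difference between the lists is therefore not independent evidence. Of 26 described, 18 were called higher and 0 lower with library totals, 22 were called higher with TMM, and 16 with the whole interval past 2-fold. The share called higher over all unigenes was 7.15% with library totals and 9.49% with TMM. The median of the list was 1.61 on the log2 scale. Among the 6 largest ratios were 4 CYP72A10 unigenes, 3 of them at the top. These 3 had similar counts, 3775, 4040 and 3998 in MeJA-1h and 217, 241 and 250 in control. They may share reads and are not independent members. c16024_Smj-1h_g1_i1 had 133 RPKM in MeJA-1h and 9.14 RPKM in control, a ratio of 14.5 (95% interval 12.6 to 16.7), SmiContig11632 was at 13.9 (12.3 to 16), c17493_Smj-0h_g1_i1 at 13.3 (11.7 to 15.2) and SmiContig31869 at 9.19 (8.12 to 10.5). In YE-1h the same 4 lay between 6.01 and 7.45 RPKM, against 9.14 to 10.9 RPKM in control. CYP714A2 c22050_Smj-6h_g2_i1 had 77.6 RPKM in MeJA-1h and 7.68 RPKM in control, a ratio of 10.1 (95% interval 8.67 to 11.9). CYP716A2 was not counted in control at all: c32889_Smj-1h_g1_i1 had 36 counts in MeJA-1h and 0 in control. With control set to 3 counts its ratio was 10, and the 95% interval from the counts as they stand ran from 7.73 upward. CYP83B1, which in *Arabidopsis* acts in indole glucosinolate synthesis, was at the low end, with 1 of 5 unigenes called with library totals, 4 of 5 with TMM, and ratios of 1.29 to 2.11.

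**Figure D4:**
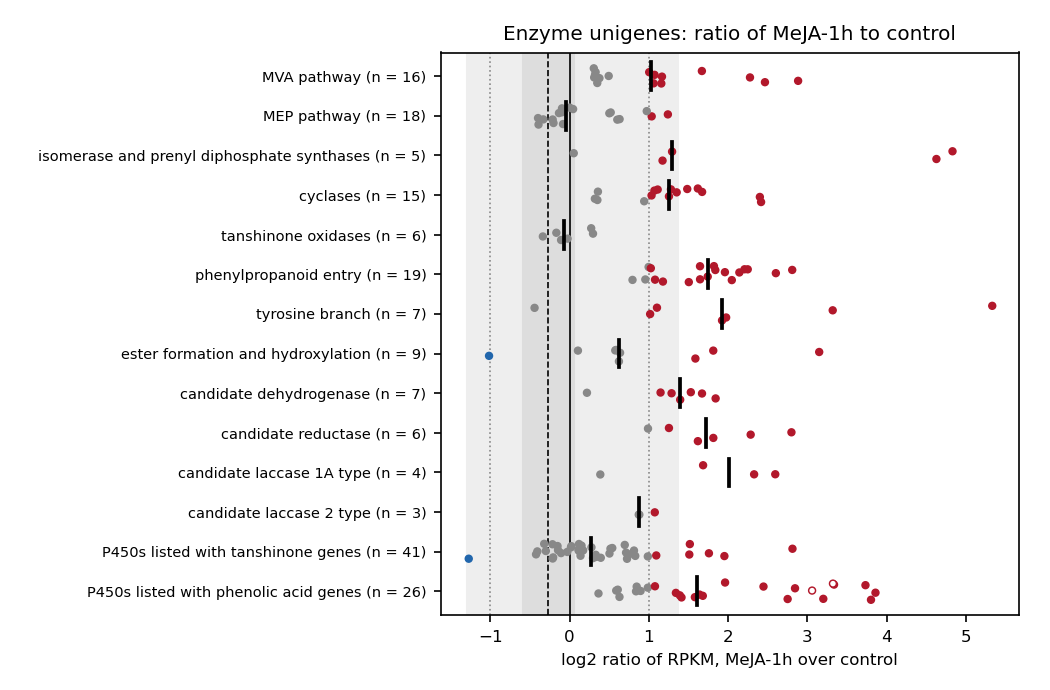
Log2 ratio of RPKM, MeJA-1h over control, of each described enzyme unigene, by pathway step or list, with the median as a black bar; colours, open points, bands and lines are as in the plot of TF ratios. The MVA median is 1.03 and the MEP median -0.04. The P450s listed with phenolic acid genes have a median of 1.61 against 0.28 for those listed with tanshinone genes. Both P450 lists were chosen by co-expression across these libraries.

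Some further genes appear with an annotation in the part of the table of raised unigenes that was at hand. Their rise is what put them there, and their values are given as a description. LOX5, a lipoxygenase match whose part in jasmonate synthesis was not tested, stands for the enzyme class that opens oxylipin synthesis. Its most abundant unigene SmiContig9212 had 341 RPKM in MeJA-1h and 76.9 RPKM in control, a ratio of 4.43 (95% interval 4.26 to 4.61), and all 5 lay between 3.77 and 4.64. The shikimate pathway supplies phenylalanine and tyrosine. SK1, shikimate kinase, had 6 unigenes at 6.67 to 9.38 RPKM in MeJA-1h with ratios of 2.56 to 4.56, EMB1144, chorismate synthase, had 272 RPKM in MeJA-1h and 134 RPKM in control, a ratio of 2.04 (95% interval 1.96 to 2.12), and CM1, chorismate mutase, had 155 RPKM in MeJA-1h and 69.3 RPKM in control, a ratio of 2.23 (95% interval 2.09 to 2.38). PDR6 matches are ABC transporters of the pleiotropic drug resistance type. Their most abundant unigene SmiContig8653 had 249 RPKM in MeJA-1h and 41.5 RPKM in control, a ratio of 6 (95% interval 5.78 to 6.22), and the largest of the 6 ratios was 13.6 (11.5 to 16.3) for SmiContig6612. NCED5 stands for the dioxygenase that commits carotenoids to abscisic acid. c864_Smj-1h_g1_i1 had 98 counts in MeJA-1h and 2 in control, a ratio of 27.2 with control set to 3 counts and of 41.1 (95% interval 11 to 342) from the counts as they stand. The 11 unigenes matched to organelle ribosomal RNA also come only from the table of raised unigenes, and other ribosomal RNA was not counted. They took 0.0358% of the counts in MeJA-1h and 0.0180% in control, shares that do not measure how an RNA sample was prepared. Leaving these 11 out of the totals shifted every ratio by under 0.001 on the log2 scale.

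Set against all unigenes with at least 100 counts in either library, 1 listed member was among the 5 largest ratios and 0 among the 5 smallest. With counts of 3 or fewer set to 3, the largest ratio, 671, was that of SmiContig14835, which is in no list and had 2416 counts in MeJA-1h and 2 in control, a plain ratio of 806 (95% interval 278 to 8319). The AP2-EREBP unigene c18443_Smj-1h_g1_i1 came next on that scale, at 482, followed by the unlisted SmiContig6746 at 171, SmiContig7562 at 164 and c14891_Smj-1h_g1_i2 at 158. At the other end, SmiContig18277 had 0 counts in MeJA-1h and 223 in control, and SmiContig2918 had 0 in MeJA-1h and 189 in control, with control levels of 33.1 and 16.2 RPKM. c577_Sye-12h_g1_i1 had 0.0697 RPKM in MeJA-1h and 16.4 RPKM in control, SmiContig17675 had 4 counts in MeJA-1h and 196 in control, and SmiContig2150 had 4 counts in MeJA-1h and 126 in control. Of all 42760 unigenes, 10 had 0 counts in MeJA-1h and 41 had 0 in control, and 5 of the 41 were listed ones.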

How the data were processed

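Total RNA of elicited and untreated *S. miltiorrhiza* hairy roots was sequenced as 1 library per condition on an Illumina HiSeq instrument. The labels and the paper's methods name different library kits, and the labels' extraction text speaks of retina, an animal tissue. After filtering, the authors built 55588 unigenes from the reads with Trinity, with no genome, and read pairs were then counted on each. The counting program is not given in the sources used here. The deposited counts are whole numbers without normalization. Their values resemble estimates cut to whole numbers: in unigenes with a count of 200 or more in any library, the reads implied by RPKM exceeded a count of 1 to 20 by at least 0.1 in 206 of 371 cases and fell short of it by more than 0.1 in 0. For the deposited RPKM, the authors divided counted reads by unigene length and library total.

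Ratios were RPKM in MeJA-1h over RPKM in control. A library with 3 counts or fewer was set to 3 counts, and no ratio was computed where both were; for 1 to 3 counts the ratio of the counts as they stand is printed beside its interval. Medians use these values. Calls were ratios over 2 or under 0.5 among unigenes with at least 30 counts in either library. No test across unigenes was run, since each condition had 1 library. Intervals of 95% were Clopper-Pearson intervals of the 2 counts, scaled by the library totals. TMM factors were computed with edgeR 4.0.16 and size factors with DESeq2 1.42.0 in R 4.3.3, on the unigenes with at least 30 counts; all else used Python 3.11.15 with pandas 2.3.3 and scipy 1.17.1. The ratios, intervals and calls were checked on simulated data.

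Gene names and families came from the study's tables, whose values were not used. The table of raised unigenes was at hand in part only, and gave *Arabidopsis* matches for some unigenes. Of the unigene names, 0 matched a RefSeq table of 42046 *S. miltiorrhiza* genes. The lists, the members and the rules were chosen with earlier results of these data known. A pathway gene was represented by its most abundant unigene, by mean RPKM over both libraries. The candidates were all named. From each P450 list the 6 largest ratios and any called lower were taken. For TF families with at least 5 unigenes the rule took the largest ratio with at least 30 counts in MeJA-1h, then all Tify, MYC2, ERF110 and ERF-1 matches in the list and up to 6 called lower. From all unigenes it took the 5 largest and 5 smallest ratios with at least 100 counts. Alternatives were TMM, DESeq2 size factors, totals without the matched ribosomal RNA unigenes, and a minimum of 1 or 100 counts. Others were RPKM under 1 set to 1, and a pseudocount of 1 RPKM. Calls only where the interval lay past 2-fold, and summed unigenes per pathway gene, were also run.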

Additional observations from a re-analysis of the deposited data

Results flagged for a closer look

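Pathway and P450 unigenes that were under 30 counts in both MeJA-1h and control but at or above 30 in a library that is not compared here are given as values, without a test. In MeJA-6h, RAS5 c2000_Smj-6h_g1_i1 had 67 counts, against 1 count in MeJA-1h and 1 in control, and CPS3 c13063_Smj-6h_g1_i2 had 35 counts, against 15 and 5 in MeJA-1h and control. In YE-1h, MDC SmiContig28300 had 56 counts, MK c925_Sye-1h_g1_i1 had 39, PMK c14516_Sye-1h_g1_i1 had 81, PMK c9683_Sye-1h_g1_i1 had 46 and PMK SmiContig28350 had 91, where MeJA-1h had 13 to 27 counts and control 2 to 19. Among the P450s in YE-1h, CYP724A1 c19005_Sye-1h_g4_i1 had 52 counts, CYP93D1 c26934_Sye-1h_g1_i1 had 31, CYP93D1 c31413_Sye-1h_g1_i1 had 35 and CYP707A4 SmiContig25546 had 70, where MeJA-1h had 0 to 11 counts and control 0 to 13. CYP707A4 SmiContig25546 also had 32 counts in YE-12h.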

How the results depend on the processing

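No paired analysis was possible because each condition had 1 library. Over all unigenes, 4043 were called lower with library totals, 2212 with TMM, 2192 with DESeq2 size factors, 6733 with a minimum of 1 count, 1736 with a minimum of 100 counts, 2433 with a pseudocount of 1 RPKM, and 1276 where the whole counting interval had to lie past 2-fold, a rule that also lowered the calls higher to 2031, against 3058. The P450s listed with tanshinone genes called higher numbered 11 with TMM and 11 with DESeq2 size factors, against 6 with library totals. The 1 of them called lower became 2 with a minimum of 1 count, and 0 with TMM, DESeq2 size factors, a minimum of 100 counts, the pseudocount or the interval rule. RAS2, the phenolic acid unigene called lower, was not called with TMM, DESeq2 size factors, the pseudocount or the interval rule, which left 0. The 5 TFs called lower numbered 3 with TMM, 3 with DESeq2 size factors, 16 with a minimum of 1 count, 1 with a minimum of 100 counts, 2 with the pseudocount and 1 with the interval rule. The interval rule left 15 tanshinone unigenes called higher, against 26. The tanshinone median of 0.56 on the log2 scale was 0.84 with TMM and 0.84 with DESeq2 size factors, and the phenolic acid median of 1.65 was 1.92 with TMM and 1.93 with DESeq2 size factors. With the unigenes of a gene summed, 13 of 26 tanshinone names were called higher with a median of 1.00, and 12 of 17 phenolic acid names with a median of 1.30. For the transcription factors, the candidates and the P450s listed with phenolic acid genes, the count called higher over the whole list stayed within 1.5 times under every alternative run. Smaller groups moved more: with TMM, CYP83B1 had 4 called against 1, laccases of the 2 type 3 against 1 and heat shock factors 6 against 3. With the interval rule HB had 3 against 5, TCP 3 against 6, bZIP 1 against 2 and CCAAT 0 against 1. The same rule left 3 cyclases against 11 and 3 dehydrogenases against 6. Of 160 named unigenes, 4 changed the sign of their log2 ratio with TMM and none of those called did. Depth limits the members under about 100 counts, whose intervals often span 2-fold. With 1 library a condition, the spread between cultures could not be measured at all.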

Other observations

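Of the 41 unigenes with at least 30 counts in MeJA-1h and 0 in control, 29 carry the name of the MeJA-1h assembly, and 32 were under 1 RPKM in both YE libraries. Among listed members, the RPKM of c18443_Smj-1h_g1_i1 (AP2-EREBP) in MeJA-6h was 2.43, beside 118 RPKM in MeJA-1h and 0.0817 RPKM in control, and that of RAS2 SmiContig29424 was 42.5, beside 5.15 RPKM in MeJA-1h and 10.4 RPKM in control. These 2 members were chosen after their values were seen, and no test was possible.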
